A study of Mus musculus with 6 samples.

Results

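The stretch of mouse chromosome 5 from 127500001 to 130000000 (mm10) holds 4 neighbouring genes, Fzd10, Piwil1, Rimbp2 and Stx2. It was chosen because it contains the stretch with the largest summed shift towards the inactive B side of the genome after knockdown of Ino80. It spans 50 of the 47717 bins of 50 kb that carried a subcompartment label in every library. The labels come from Hi-C, which records which DNA segments lie close together in the nucleus, in 6 libraries of the mouse embryonic stem cell line E14 (E14TG2a, wild type, male). Cells were harvested 48 h after transient transfection with esiRNA, a pool of short interfering RNAs. The pool was directed against EGFP in the control group, against Smarca4 in Brg1KD and against Ino80 in Ino80KD, with 2 libraries in each group. Replicate 1 of every group belongs to batch 1 and replicate 2 to batch 2. The labels do not say whether replicates were separate cultures, so tests between libraries measure a spread that may be technical. All cells are of 1 line. Of the pluripotency genes, Pou5f1 was in the most A-like class in all 6 libraries, as were Smarca4 and Ino80, and Sox2 and Nanog were in it or the next. Transcripts were not measured in these libraries, and neither was the loss of Brg1 or Ino80.

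Hi-C separates the genome into A, which is gene-rich and mostly active, and B, which is gene-poor and mostly silent. Finer labels order this axis in 8 classes, from A.1.1 (the most A-like) through A.1.2, A.2.1, A.2.2, B.1.1, B.1.2 and B.2.1 to B.2.2 (the most B-like). A shift of 1 class is 1 step on that axis, positive towards A. Smarca4 encodes Brg1, the ATPase of the esBAF remodelling complex, and Ino80 encodes the ATPase of the INO80 complex. Both machines use ATP to move or exchange nucleosomes. Chromatin loops are pairs of sites that touch more often than their surroundings, and many are held by cohesin and CTCF.

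The 4 genes act in Wnt signalling, in the piRNA pathway and in vesicle release. Fzd10 (gene ID 93897, 128601106 to 128604093, forward strand) encodes a Frizzled receptor for Wnt ligands. Piwil1 (57749, 128736071 to 128755474, forward strand) encodes a PIWI protein that binds piRNAs in male germ cells. Rimbp2 (231760, 128757788 to 128953644, reverse strand) encodes a RIM-binding protein of the presynaptic active zone. Stx2 (13852, 128984557 to 129008600, reverse strand) encodes a syntaxin, a membrane SNARE protein of vesicle fusion. Gaps of 131977, 2313 and 30912 bases separate them in this order. Their promoters are shown because the genes changed label together and because a loop anchor lies on 1 of them. Each line gives the bases from 250 before to 50 after the start of transcription (RefSeq, GRCm38.p6), 5′ to 3′ on the gene's own strand, with every CpG in capitals. They lie at chr5:128600856-128601155 (Fzd10), chr5:128735996-128736295 (Piwil1), chr5:128953437-128953736 (Rimbp2) and chr5:129008523-129008822 (Stx2, the outer of 2 listed promoters).
Fzd10: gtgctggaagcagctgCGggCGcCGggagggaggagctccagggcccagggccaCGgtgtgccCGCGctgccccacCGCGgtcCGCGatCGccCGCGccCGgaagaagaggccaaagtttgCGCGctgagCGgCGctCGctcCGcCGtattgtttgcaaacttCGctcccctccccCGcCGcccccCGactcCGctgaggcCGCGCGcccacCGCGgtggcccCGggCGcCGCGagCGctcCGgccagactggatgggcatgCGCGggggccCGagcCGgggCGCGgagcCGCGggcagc
Piwil1: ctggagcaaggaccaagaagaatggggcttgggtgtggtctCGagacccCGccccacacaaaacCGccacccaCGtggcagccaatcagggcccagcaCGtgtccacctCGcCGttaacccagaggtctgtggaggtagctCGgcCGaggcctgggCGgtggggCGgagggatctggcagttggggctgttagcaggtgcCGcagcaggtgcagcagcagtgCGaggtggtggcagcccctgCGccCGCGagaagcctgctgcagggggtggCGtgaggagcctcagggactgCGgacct
Rimbp2: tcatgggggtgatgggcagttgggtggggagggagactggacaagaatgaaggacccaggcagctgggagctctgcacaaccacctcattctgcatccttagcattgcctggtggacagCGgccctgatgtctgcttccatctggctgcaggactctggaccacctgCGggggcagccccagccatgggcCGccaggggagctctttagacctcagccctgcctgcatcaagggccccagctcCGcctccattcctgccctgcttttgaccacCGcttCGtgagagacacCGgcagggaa
Stx2: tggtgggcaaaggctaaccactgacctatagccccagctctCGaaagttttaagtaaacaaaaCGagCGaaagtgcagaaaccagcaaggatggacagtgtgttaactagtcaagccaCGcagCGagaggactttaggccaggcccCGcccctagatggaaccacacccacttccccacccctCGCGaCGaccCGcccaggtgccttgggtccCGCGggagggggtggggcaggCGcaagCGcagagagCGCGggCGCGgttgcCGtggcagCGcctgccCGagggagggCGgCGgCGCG

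The promoters differ widely in CpG content. Fzd10 has 45 CpG in its 300 bases, more than 98.1% of the 32851 mouse promoters in the table, Stx2 has 25, Piwil1 18 and Rimbp2 7. The median of all promoters is 7. The GC box (GGGCGG, or CCGCCC on the other strand, which contains a CpG) occurs 3 times in Piwil1, 3 times in Stx2, once in Fzd10 and not in Rimbp2, and 35.7% of all promoters hold it. GATC, the site cut by DpnII, the enzyme used to make these libraries, occurs once each in Fzd10 and Piwil1 and in neither of the others, against 48.0% of all promoters. TATAAA was found on neither strand in any of the 4 (13.6% of all promoters). The matches are letters in these windows only.

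All 4 genes lay in A in every library and were 1 class lower in both Ino80KD libraries than in both controls. Fzd10 was in A.2.1 in control replicates 1 and 2, in A.2.1 in both Brg1KD libraries and in A.2.2 in both Ino80KD libraries. Piwil1 carried the same 6 labels as Fzd10. Rimbp2, placed by its midpoint, carried them as well. Stx2 was in A.1.1 in both controls and both Brg1KD libraries, and in A.1.2 in both Ino80KD libraries. The groups control and Ino80KD did not overlap for any of the 4, and control and Brg1KD were identical. Over the genome, both Ino80KD libraries lay below both controls in 4.50% of bins. Control and Brg1KD had equal means in 50.8%, which is not a like comparison, as given below. The 4 genes lie in 2 segments and are not independent. None of the genes crossed from A to B. These Ino80KD values chose the locus, so they are given as a description.

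**Figure D1:**
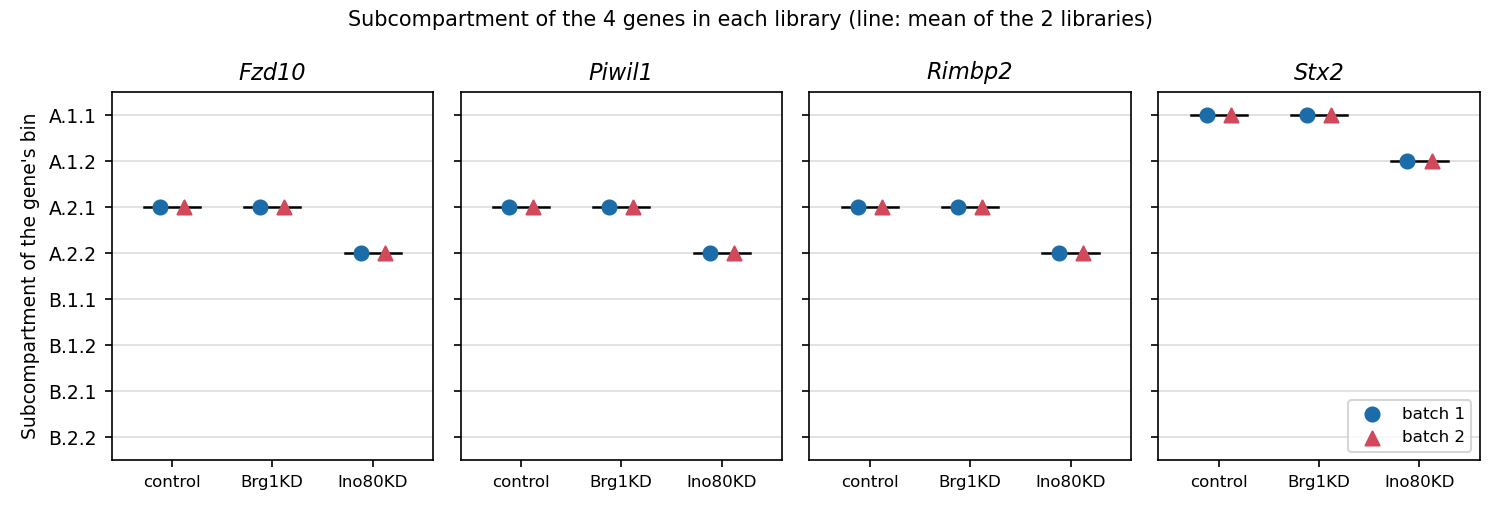
Subcompartment (vertical axis, 8 classes) of the 50 kb bin holding the midpoint of each gene, for the 3 groups. Circles are batch 1, triangles batch 2 and lines the mean of the 2 libraries. Fzd10, Piwil1 and Rimbp2 sit at A.2.1 in control and Brg1KD and at A.2.2 in Ino80KD, and Stx2 at A.1.1 and A.1.2.

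Rimbp2 straddles a border between 2 segments. Its body covers 5 bins (128750001 to 129000000). The first 4 bins lie in the segment of Fzd10 and Piwil1, which ends at 128950000. The start of transcription (128953486) lies just beyond, in the segment of Stx2, which was A.1.1 in both controls and A.1.2 in both Ino80KD libraries. Both parts of the gene were 1 class lower in Ino80KD, so all 4 genes keep this value whether placed by midpoint, by start of transcription or by every bin of the body.

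The stretch that moved by 1 class in Ino80KD spans 850 kb (128450001 to 129300000, 17 bins) and holds 2 further protein-coding genes. Ran (129020156 to 129024322), the small GTPase of nuclear transport, and Adgrd1 (129096750 to 129204599), an adhesion G protein-coupled receptor, carried the labels of Stx2 in every library. The mean rank of the 17 bins, counted from 1 (B.2.2) to 8 (A.1.1), was 6.82 in each control library, 6.82 in each Brg1KD library and 5.82 in each Ino80KD library. The step was thus -1 class in both batches, with no spread between replicates. The run was formed from calls that favour bins with no spread between replicates. This agreement therefore follows in part from the choice. The 17 bins are not independent, since they are 2 segments, of 500 kb and 350 kb. Neighbouring bins in 1 segment share a label by construction.

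**Figure D2:**
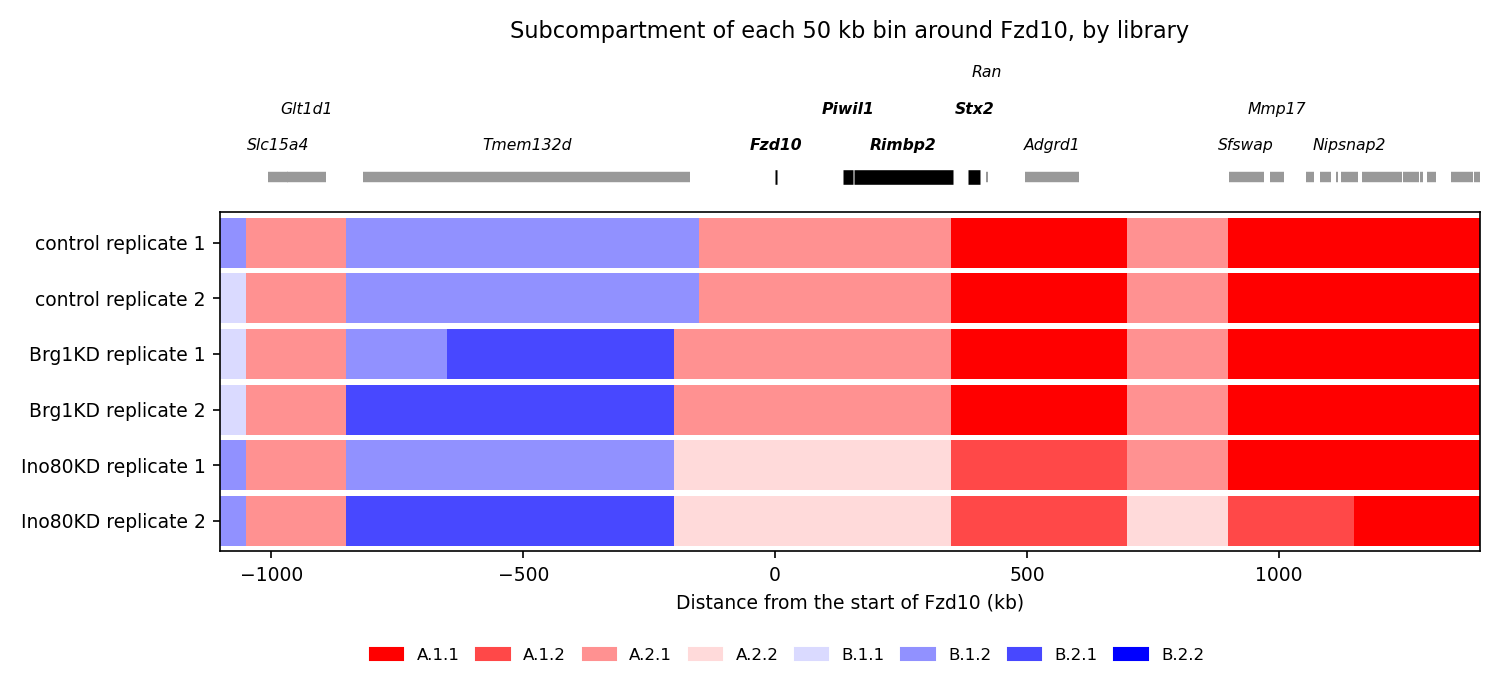
Label of each 50 kb bin in the 6 libraries (rows), coloured from A.1.1 (red) to B.2.2 (blue), against the distance from the start of Fzd10 in kb. Genes are drawn above, with Fzd10, Piwil1, Rimbp2 and Stx2 in black. The 850 kb around these genes are paler in both Ino80KD libraries, while the borders inside it stay in place.

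By limma with Benjamini-Hochberg adjustment over all bins, these 17 bins were called towards B in Ino80KD, where 2.37% of all bins were called that way. Both Ino80KD libraries lay below both controls in the same 17 bins (4.50% of all bins). Nothing is read from these counts, since the choice of the locus used them. Among 262 runs of called bins towards B, this run had the largest summed shift, -17 classes, and the next, on chromosome 10 (83800001 to 84350000), had -13. The nearest other such runs on chromosome 5 lay 2050 kb to the left and 4100 kb to the right. With a common variance for all bins, limma called none of the 17 towards B (adjusted p = 0.362 for each), and in that fit 0.402% of all bins were called towards B. Without adjustment all 17 had p below 0.05 in either fit. Of all 47717 bins, 1312 had this towards B by limma and 3219 with a common variance. These p-values also come from the values that chose the run, so nothing is read from them. The limma calls rest on the absence of spread inside each group: 18941 bins have no residual spread, and the p-values of such bins are not calibrated.

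Brg1 knockdown left the labels of the 850 kb as in control. All 17 bins, with Fzd10, Piwil1, Rimbp2, Stx2, Ran and Adgrd1, had the same label in both Brg1KD libraries as in both controls, a shift of 0. Over all bins the group means were equal in 50.8%, which is not a like comparison: the limma calls that formed the run come from a fit of all 3 groups and favour bins with no spread between the Brg1KD replicates. By limma none of the 17 was called in either direction (0 also without adjustment and 0 with a common variance), where 3.30% of all bins were called towards B and 1.53% towards A. A shift of 0 cannot be called in any fit, so these counts restate the equal labels and are no further test. This comparison shares its controls with the one that chose the locus. The Brg1KD mean lay 1 class above the Ino80KD mean in all 17 bins and in both batches, which is not tested because the Ino80KD libraries chose the bins.

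The 1 bin of the locus called in Brg1KD lay at the left edge of this stretch, at an end of Tmem132d. Tmem132d (127783491 to 128433077) encodes a single-pass membrane protein of the nervous system. The bin 128400001 to 128450000, which holds the right end of its body, was B.1.2 in control replicates 1 and 2, A.2.1 in both Brg1KD libraries and A.2.2 in both Ino80KD libraries. All 4 knockdown libraries lay above both controls, on the other side of the A/B border. The shift was 3 classes towards A in Brg1KD (limma adjusted p = 8.00e-08, and 1.44e-07 with a common variance) and 2 classes in Ino80KD (1.20e-07 and 0.00371). It went against the direction of the 850 kb in Ino80KD next to it. By limma this was the 1 bin of 50 called in Brg1KD, and in Ino80KD the 1 called towards A (0.855% of all bins). With a common variance it was again the 1 bin called in each, where 1.02% of all bins were called towards A in Brg1KD and 0.281% in Ino80KD. It was also the 1 bin of the locus above both controls in both libraries of a knockdown (3.13% of all bins in Brg1KD, 1.76% in Ino80KD). Both knockdowns are set against the same controls. In all, 18 bins of the genome (0.0377%) lay above both controls by 2 classes or more in both knockdowns. That threshold is this bin's own shift in Ino80KD, so the share is a description and not a measure of how rare the bin is.

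Seen as borders, the A/B border left of Fzd10 lay at 128450001 in both controls and at 128400001 in all 4 knockdown libraries. The A segment of Fzd10, Piwil1 and most of Rimbp2 was therefore 500 kb long in control and 550 kb in each knockdown library. The distance from its left border to the midpoint of Fzd10 was 153 kb in control and 203 kb in the knockdowns. Of 1131 A/B borders shared by both controls, 6 (0.531%) moved by 1 bin into B in all 4 knockdown libraries, 4 (0.354%) moved by 1 bin into A in all 4, and 644 (56.9%) stayed in place. A move of 50 kb is the smallest that these bins can show.

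Of the 6 borders of control replicate 1 in the 2500 kb, 5 were at the same base in all 6 libraries, including 128950001 inside the body of Rimbp2 and 129300001 beyond Adgrd1. Besides these, 127950001 was a border in Brg1KD replicate 1 alone (B.1.2 to B.2.1), and 129750001 in Ino80KD replicate 2 alone (A.1.2 to A.1.1). The segment of Stx2, Ran and Adgrd1 (128950001 to 129300000) thus kept both borders while its label changed in Ino80KD. Across the genome, 582 segments had the same borders and label in both controls and the same borders in both Ino80KD libraries. Of these, 23 (3.95%) were 1 class lower in both Ino80KD libraries, this segment included, and 455 (78.2%) had the same label. For Brg1KD, 29 of 456 such segments (6.36%) were 1 class lower and 328 (71.9%) unchanged, and this segment was among the unchanged.

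Much of the rest of the body of Tmem132d carried a lower label in Brg1KD than in control, a difference that limma did not call. The 9 bins from 127950001 to 128400000 were B.1.2 in both controls, B.2.1 in both Brg1KD libraries, B.1.2 in Ino80KD replicate 1 and B.2.1 in Ino80KD replicate 2. Both Brg1KD libraries lay below both controls in these 9 bins, against 7.19% of all bins. The limma adjusted p was 0.733, and 0.236 with a common variance, and without adjustment 0 of the 9 had p below 0.05 by limma and 9 with a common variance. In the common-variance fit 2.38% of all bins were called towards B in Brg1KD. The call depends on the libraries in the fit. With the 4 control and Brg1KD libraries alone, 10 bins of the locus were called in Brg1KD in place of 1. The share of all bins called in that fit is not given, so nothing is read from the 10. In the next 4 bins (127750001 to 127950000) only the replicates 2 of Brg1KD and Ino80KD were at B.2.1, so the groups overlapped.

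**Figure D3:**
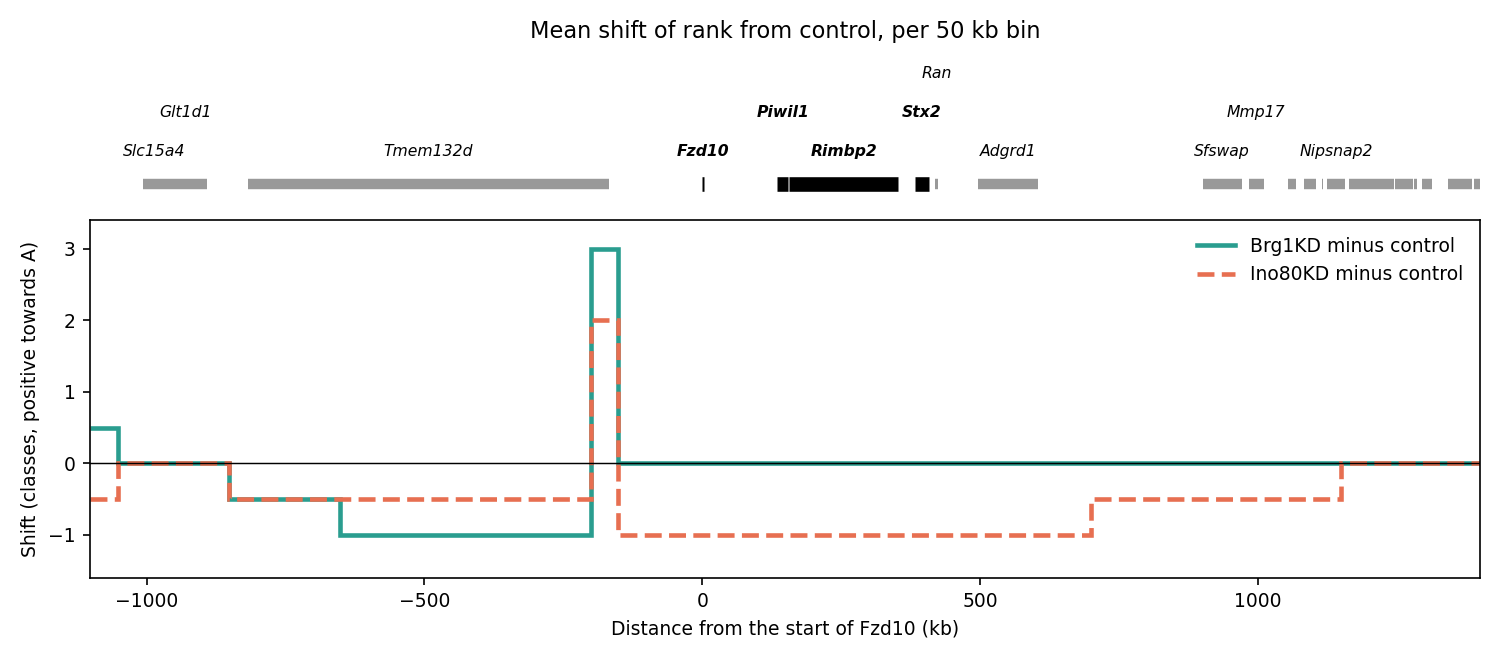
Mean rank of each knockdown minus that of control per 50 kb bin (vertical axis, classes, positive towards A) against the distance from the start of Fzd10 in kb. The solid line is Brg1KD and the dashed line Ino80KD. In 1 bin left of Fzd10 Brg1KD is at 3 classes and Ino80KD at 2, and from there Ino80KD runs at -1 class over 850 kb while Brg1KD stays at 0.

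To the right of Adgrd1, Ino80KD replicate 2 stood apart. Over 129300001 to 129500000, which holds no protein-coding gene, it was A.2.2 and the other 5 libraries A.2.1. Over 129500001 to 129750000, with Sfswap, a splicing regulator, Mmp17, a membrane-bound metalloproteinase, Zfp11, Septin14 and Mrps17, it was A.1.2 and the others A.1.1. From 129750001 to 130000000 all 6 libraries were A.1.1, a stretch that holds the serine biosynthesis gene Psph, the chaperonin subunit gene Cct6a and the β-glucuronidase gene Gusb. At the left end, the peptide transporter gene Slc15a4 and Glt1d1 were A.2.1 in all 6 libraries, with a pair of A/B borders around them in the same place throughout. Of the 24 protein-coding genes with their midpoint in the locus, 6 were called towards B in Ino80KD by limma (2.37% of all bins), namely the 4 genes with Ran and Adgrd1. All 6 lie in the run that was chosen on these values. None was called with a common variance (adjusted p = 0.362 for each in that fit), which passes no shift of 1 class. By limma none of the 24 was called in Brg1KD (0 also without adjustment and with a common variance), where 23 had the control mean and so could not be called.

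Control replicates had equal labels in 49 of the 50 bins, Brg1KD replicates in 46 and Ino80KD replicates in 28. Over the genome the shares were 68.9%, 68.3% and 69.5%. The 50 bins include the 17 of the run, which was formed from calls that favour bins with no spread. Their agreement follows in part from that choice. The 50 bins are also not independent, since neighbouring bins in 1 segment share a label. Averaged over the whole 2500 kb, the mean rank was 5.78 and 5.8 in the controls, 5.68 and 5.6 in Brg1KD, and 5.48 and 5.04 in Ino80KD. The means were 5.79 ± 0.0141 in control, 5.64 ± 0.0566 in Brg1KD and 5.26 ± 0.311 in Ino80KD (SD, n = 2), and neither knockdown overlapped the controls. How often other stretches of this length do so is not given, so nothing is read from it. The Ino80KD mean includes the 17 bins whose values chose the locus, so its distance from control, and from the mean of all bins, is a description. Brg1KD differed from control by -0.15 classes (-0.1 in batch 1 and -0.2 in batch 2, exact two-sided permutation p = 0.333, the smallest that 2 against 2 libraries allow). The Brg1KD difference lay to the left of the 17 bins (-0.395 classes), with 0 in them and 0 to their right. It shares its controls with the comparison that chose the locus. Ino80KD differed by -0.53 classes (-0.3 and -0.76 in the batches), a value that depends on the library: dropping Ino80KD replicate 2 left -0.31, and dropping Ino80KD replicate 1 left -0.75. Outside the 17 bins, Ino80KD minus control in batch 1 was 0.105 to their left and 0 to their right. In batch 2 it was -0.632 and -0.643. Over all bins the mean shift was -0.0847 classes in Brg1KD and -0.0774 in Ino80KD.

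The loop lists, 1 per group, give the positions of 2 anchors of 10 kb per loop, with no score and no replicate, so differences between them were not tested. The locus held 14 loops in the control list, 14 in the Brg1KD list and 9 in the Ino80KD list, all with both anchors inside it. The lists as a whole held 5903, 6013 and 5475 loops. Of the 14 control loops, 9 had no loop with the same anchors in the Ino80KD list (53.6% of all control loops had none), and 7 had none in the Brg1KD list (54.3%). Allowing 10 kb at both anchors, 5 were absent from Ino80KD (24.9% of all control loops) and 2 from Brg1KD (23.0%). Allowing 20 kb, 5 were absent from Ino80KD (22.5%) and 1 from Brg1KD (20.4%). Read the other way, all 9 Ino80KD loops of the locus had a control loop within 10 kb at both anchors, where 19.0% of all Ino80KD loops had none.

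Rimbp2 was the 1 gene of the 4 with loop anchors in its body. In control and in Brg1KD, the same loop of 130 kb joined 128820001 to 128830000, inside the gene and over the lncRNA Gm34057, with 128950001 to 128960000, which holds its start of transcription and the promoter printed above. It linked the A.2.1 and the A.1.1 segment. The Ino80KD list had no loop within 20 kb of it. Whether contacts there were fewer in Ino80KD cannot be read from a list without scores.

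A loop around Fzd10 was in all 3 lists. It joined 128520001 to 128530000 with 128660001 to 128670000 in control and Brg1KD (140 kb) and with 128670001 to 128680000 in Ino80KD (150 kb), and Fzd10 was the only protein-coding gene between its anchors. Piwil1 and Stx2 had no anchor in their bodies in any list.

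The 2 control loops with an anchor in Tmem132d did not have the same pair of anchors in either knockdown list. Over the genome this held for 53.6% of control loops against the Ino80KD list and 54.3% against the Brg1KD list. The control list had a loop of 470 kb inside Tmem132d, from 127960001 to 127970000 to 128430001 to 128440000. In both knockdown lists its right anchor lay at 128420001 to 128430000 (460 kb), which counts as a match within 10 kb. From the same left anchor a control loop of 540 kb reached 128500001 to 128510000, across the A/B border of the controls into the segment of Fzd10. It was the 1 control loop of the locus that had no counterpart within 20 kb in either knockdown list. Of all control loops, 22.5% had none within 20 kb in the Ino80KD list and 20.4% had none in the Brg1KD list, each list taken alone. The share absent from both lists is not given, so nothing is read from this 1 loop.

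Many of the loops had an anchor between Ran and Adgrd1. Anchors there (129030001 to 129070000) served 7 loops in control, 7 in Brg1KD and 4 in Ino80KD. Adgrd1 itself held an anchor of 2 loops in each list, and Mmp17 of 4, 5 and 4. The anchor 129050001 to 129060000 alone served 4 loops in control, 3 in Brg1KD and 2 in Ino80KD. Loops from it to Sfswap (129510001 to 129520000) had the same anchors in all 3 lists. So did the loop of 100 kb from the lncRNA Gm38615 into Adgrd1 (129160001 to 129170000). Absent from the Ino80KD list within 20 kb were the control loops of 170 kb and 280 kb that span Adgrd1, and the longest, of 860 kb, which reached Zbed5. The corresponding longest loop in Brg1KD ended at Phkg1 (840 kb), and a loop of 270 kb from Mmp17 to Phkg1 was in the Brg1KD list alone.

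**Figure D4:**
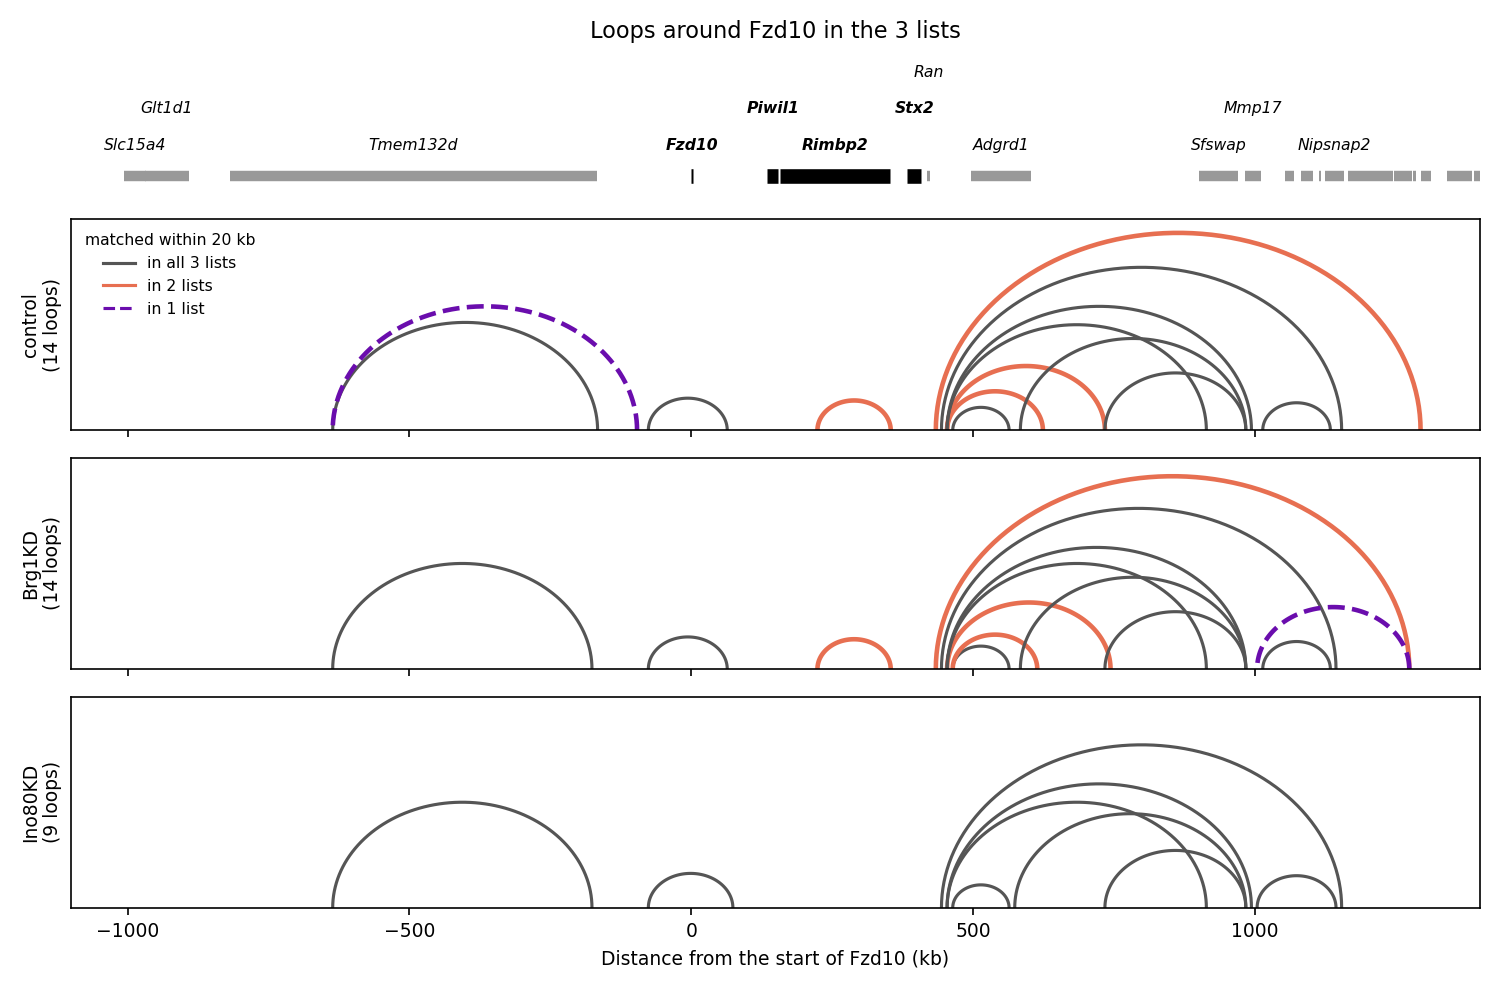
Loops of the control, Brg1KD and Ino80KD lists as arcs between their anchors, against the distance from the start of Fzd10 in kb; arc height is proportional to loop length. Grey loops have a counterpart within 20 kb in all 3 lists, orange ones in 2 lists and dashed purple ones in 1. The loop inside Rimbp2 is drawn for control and Brg1KD and not for Ino80KD, which has 9 loops against 14 and 14.

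The set of labels shared by Fzd10, Piwil1 and Rimbp2 (A.2.1 in 4 libraries, A.2.2 in both of Ino80KD) was found in 50 bins outside the locus, in 12 runs. Likeness was the sum over the 6 libraries of the absolute rank differences, which is 0 for these bins. The longest runs were 350 kb on chromosome 1 (60550001 to 60900000) with Cd28, a costimulatory receptor of T cells, and 350 kb on chromosome 5 (8850001 to 9200000) with Abcb4 and Crot among 4 genes. A run of 300 kb on chromosome 18 (64550001 to 64850000) held Atp8b1. On chromosome 5 a run of 250 kb (100100001 to 100350000) held Tmem150c, and 200 kb (13900001 to 14100000) held no protein-coding gene. Within the locus the same labels ran over 10 bins.

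Other genes of the pathways to which the 4 belong were read in the same fit. Of 25 genes of Wnt reception placed, Fzd10 was the 1 called in Ino80KD, towards B, and none was called in Brg1KD by limma (1 without adjustment and 1 with a common variance). That 1 was Fzd4, another Wnt receptor, which was A.2.2 and B.1.1 in control, B.2.1 and B.1.2 in Brg1KD and B.1.1 in both Ino80KD libraries (-2 classes in Brg1KD, limma adjusted p = 0.481, or 0.00207 under 1 variance for all bins). Of 21 piRNA pathway genes, Piwil1 was the 1 called in Ino80KD, and Tdrd6, a Tudor protein of germ cells, the 1 in Brg1KD (A.2.1 in both controls and both Ino80KD libraries, A.2.2 in both Brg1KD libraries; limma adjusted p = 8.00e-08, but 0.236 with a common variance). The common-variance fit passes no shift of 1 class, so its value for Tdrd6 reflects only the size of the shift. The median shift was 0 classes in every list in both knockdowns, as over all bins.

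Of 20 active zone genes, Rimbp2 was the 1 called in Ino80KD and none was in Brg1KD by limma (0 without adjustment and 0 with a common variance). Rims4, of the RIM family, had 0.5 classes in Brg1KD and 1 in Ino80KD (limma adjusted p = 0.808 and 0.970). Of 28 syntaxins and SNARE partners, Stx2 and Stx8 were called in Ino80KD, and Stx8 also in Brg1KD, all towards B. With a common variance 2 were called in Brg1KD, Stx3 towards B and Vamp4 towards A, and neither Stx2 nor Stx8 was called in either knockdown. That fit passes no shift of 1 class, the size of shift of Stx8 in both knockdowns and of Stx2 in Ino80KD. Stx8 crossed the A/B border, from A.2.2 in both controls to B.1.1 in all 4 knockdown libraries (limma adjusted p = 8.00e-08 in Brg1KD and 1.20e-07 in Ino80KD, but 0.236 and 0.362 with a common variance). Stx3 was A.1.2 and A.2.1 in control, B.1.2 and B.2.1 in Brg1KD, and A.2.1 and A.1.2 in Ino80KD, a shift of -4 classes in Brg1KD (limma adjusted p = 0.137, or 7.95e-14 under 1 variance for all bins). Vamp4, a vesicle SNARE protein, was A.2.1 and B.1.1 in control, A.1.2 in both Brg1KD libraries and A.2.1 in both Ino80KD libraries, which is 2 classes towards A in Brg1KD (limma adjusted p = 0.733, or 0.00207 under 1 variance for all bins). With 3.22% of all bins called either way in Ino80KD and 4.83% in Brg1KD, and with Fzd10, Piwil1, Rimbp2 and Stx2 chosen on the Ino80KD values, nothing is read from these counts about the pathways.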

How the data were processed

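The deposited files are 1 set of labelled segments for each library and, for each group, 1 loop list, named as merged and so taken as pooled from both libraries. The authors gave a score to each segment; in the deposited values it is the rank of the label in 8 equal steps. The loop lists give anchor positions only. Per the submitters' processing notes, the tools were bedtools, HOMER, Juicer 2.0, SAMtools and BWA, with build mm10; which of them called segments and loops was not given in the sources used. Read depth is unknown, so no interval that needs it was computed.

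Segments were cut into bins of 50 kb, and 47717 of 48009 bins had a label in all 6 libraries. Ranks were fitted in R 4.3.3 by lmFit and eBayes of limma 3.58.1 (3 groups, all 6 libraries, Benjamini-Hochberg threshold 0.05 over all bins). Shifts under rounding error were set to 0. The fit was tested on simulated ranks, where limma's moderated fit called many unchanged bins that had no spread; its calls are therefore printed beside a fit with a common variance and beside counts without a model. In the common-variance fit the variance was the mean over all bins and was taken as known. Its p came from a z-test on the normal distribution, without eBayes. The mean rank of the locus was compared by exact permutation of libraries. Genes were placed by midpoint (RefSeq, GRCm38.p6, the assembly mm10 names), and loops were matched by identical anchors or within 10 and 20 kb. Replicate numbers pair the libraries because the labels name them as batches; within a batch, the libraries' departures from their group means had r = 0.0984, 0.102 and 0.0885 over bins.

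The members and gene lists were chosen with earlier results of these data known. Named are the 4 genes, protein-coding neighbours in the locus, the 5 longest runs with the same labels (up to 2 genes each), and up to 4 genes per pathway list with the largest mean shift over both knockdowns, beside those called; the loops named are the longest, those in gene bodies of the 4 and, chosen after their positions were seen, those at Tmem132d, Fzd10, Adgrd1 and Mmp17. Of the 26 Wnt reception and 29 SNARE genes, 25 and 28 were placed.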

Additional observations from a re-analysis of the deposited data

How the results depend on the processing

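The step of 1 class in Fzd10, Piwil1, Rimbp2 and Stx2 was the same by midpoint, start of transcription and gene body. With batch as a replicate block the locus counts stayed at 1 bin in Brg1KD and 18 in Ino80KD, and the mean shifts at -0.15 and -0.53 classes, and it changed no call among the bins of the locus. Over all bins limma called 1538 in Ino80KD, and 326 with a common variance. The Ino80KD mean shift was -1 over the 850 kb and over the bins of the 4 gene bodies, -0.3 in batch 1 and -0.76 in batch 2. Brg1KD minus Ino80KD was 0.38 classes, and 1 over the 850 kb and the gene bodies. Leaving out 1 library gave -0.19 to -0.11 for Brg1KD minus control, -0.75 to -0.31 for Ino80KD minus control and 0.16 to 0.6 for Brg1KD minus Ino80KD (0.16 without Ino80KD replicate 2). Bins called in Brg1KD numbered 10 with the 4 libraries of those groups alone and 10 by the count without a model, and 1 to 10 with 1 library left out (2 without control replicate 2). In Ino80KD they numbered 1 with a common variance, which passes no shift of 1 class, 9 in bins of 100 kb, which are fewer, and 18 to 36 with 1 library left out (36 without Ino80KD replicate 1). In fits with 1 library left out, or with 4 libraries, most bins had no residual spread, and limma reported its moderation as unreliable. Control loops also in the Brg1KD list numbered 7 with the same anchors, 12 within 10 kb and 13 within 20 kb, and in the Ino80KD list 5, 9 and 9. Of the borders, 2 in all 6 libraries were A/B borders. What limits these data is 2 libraries per group, a rank of 8 steps and loop lists with no score or replicate.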
